A study of Homo sapiens with 30 samples.

Results

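Growth-arrest and DNA-damage stress genes are described here by the 8 members GADD45A, GADD45B, CDKN1A, MDM2, BTG2, IER3, IER5 and SESN2. They were chosen by name, as the rows of the deposited count table that carry these symbols, and make up 8 of its 60664 genes. The cells were a pair of lines derived from Flp-In T-REx HEK293, a human embryonic kidney line with a tetracycline-inducible cassette. Each line was stably transfected with GFP-tagged TIA1a, either wild-type (WT) or carrying the Welander distal myopathy mutation (WDM). Every group held 3 replicates, and there were 10 groups. In the cytosol, each line was sequenced untreated, with tetracycline, and with tetracycline plus sodium arsenite at 0.5 mM for 60 min. TIA1 stress granules, pulled down through the GFP tag, were sequenced from each line with tetracycline alone and with tetracycline plus arsenite, so no granule group was free of tetracycline. Each genotype was represented by its own transfected line, so the mutation and other differences between the lines cannot be told apart, and the labels do not say whether replicates were separate cultures, so p-values measure only the spread between these samples.

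GADD45A and GADD45B are small stress-inducible proteins that bind the MAP kinase kinase kinase MEKK4, PCNA and CDK1. CDKN1A (p21) inhibits cyclin-dependent kinases and so takes part in the arrest of dividing cells after DNA damage. MDM2 is the ubiquitin ligase that marks p53 for degradation and so restrains the p53 response. BTG2 is an antiproliferative protein that recruits the CCR4-NOT deadenylase to mRNA. IER3 and IER5 are immediate early gene products, the first linked to ERK signalling and the second to heat shock factor HSF1, and SESN2 is a leucine sensor that restrains mTORC1 through GATOR2. Several of the 8 are textbook p53 targets, and several are also induced without p53 by stress kinases or by the integrated stress response. HEK293 cells carry adenoviral early-region genes whose products bind p53, which limits them as a model of the p53 response. Arsenite is an oxidative stressor that stalls translation and drives mRNA and RNA-binding proteins such as TIA1 into stress granules.

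Total counts ran from 7971585 to 18884843 in the 18 cytosol libraries and from 5906167 to 27419145 in the 12 granule libraries, and the highest count that a 0 allows, 3 counts, corresponds to 0.109 to 0.508 CPM (counts scaled to the library total). That floor covers counting error only. The fewest counts of a member in a library were 43, for IER3, so all 8 passed the filter on low counts in every fit. The epithelial markers KRT8, KRT18, KRT19, CDH1 and EPCAM were all detected and summed to 315 to 570 CPM in cytosol and 86.3 to 157 CPM in granules. The 4 embryonic kidney markers summed to 7.3 to 39.9 CPM. The 6 markers of other cell types summed to at most 6.86 CPM, and HBB never exceeded 3 counts. TIA1 itself held 3 counts over all 30 libraries, so its row does not check the labels of the lines.

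Sequences that distinguish the members are given before their values. RefSeq promoter windows of 300 bases (250 before a start and 50 after it, GRCh38.p14) were found for 6 of the 8 members, 9 windows in all. The window shown for MDM2 belongs to its downstream start, inside the gene, and its capitals mark an AP-1 motif and a pair of full p53 sites. It lies at chr12:68808767-68809066 on the plus strand.
MDM2: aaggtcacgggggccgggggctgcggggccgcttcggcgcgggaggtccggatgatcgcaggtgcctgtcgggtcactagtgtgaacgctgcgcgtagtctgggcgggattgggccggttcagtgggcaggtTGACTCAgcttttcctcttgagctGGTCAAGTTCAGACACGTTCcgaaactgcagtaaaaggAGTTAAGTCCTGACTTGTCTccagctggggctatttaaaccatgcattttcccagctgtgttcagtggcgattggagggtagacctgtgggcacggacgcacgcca
The window of GADD45B, shown because this gene had the largest arsenite change of the members in WDM cytosol, lies at chr19:2475877-2476176 on the plus strand, with its TATA motif in capitals.
GADD45B: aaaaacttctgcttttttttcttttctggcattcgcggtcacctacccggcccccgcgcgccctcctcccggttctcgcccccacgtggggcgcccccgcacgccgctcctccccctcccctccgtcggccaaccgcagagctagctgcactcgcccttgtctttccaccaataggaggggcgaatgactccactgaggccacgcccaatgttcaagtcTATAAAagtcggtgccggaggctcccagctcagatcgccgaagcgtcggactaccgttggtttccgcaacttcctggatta

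The p53 sites were found by a search for 20 bases, a pair of adjacent half-sites with at most 3 mismatches in all, on either strand. They lie at -94 to -75 and at -56 to -37 from the downstream MDM2 start, and 5.20% of the 35116 promoter windows of all genes hold at least 1 such site. The AP-1 motif, TGANTCA, lies at -118 to -112 and occurs in 7.71% of windows. The same bases also match the antioxidant response pattern TGACNNNGC, which occurs in 13.3%. The TATAAA of GADD45B lies at -31 to -26, and 11.5% of windows hold that motif. No member window held the cyclic AMP response element TGACGTCA (1.85% of all windows), the composite C/EBP-ATF motif TGATGNAA (3.62%) or a CArG box (1.29%).

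The 3′ untranslated regions differ in their AU-rich elements, the ATTTA pentamers that RNA-binding proteins recognise in short-lived mRNAs. In the GENCODE v44 canonical transcripts, MDM2 holds 23 pentamers in 5695 bases, IER5 10 in 3014, IER3 6 in 737, CDKN1A 3 in 1532, BTG2 2 in 2164 and GADD45A 2 in 560. GADD45B and SESN2 hold none in 656 and 1689 bases. Per length, IER3 stood at the percentile 98.1 of 13518 genes with 8.14 pentamers per kb, against a median of 1.71. The nonamer TTATTTATT was found 3 times in IER5 and once in MDM2, and 9.81% of genes hold it. A stretch of at most 30 bases with the densest pentamers, in capitals, is shown for the 3 genes richest in them, at chr12:68843441-68843466 (plus strand) for MDM2, chr6:30743650-30743674 (minus strand) for IER3 and chr1:181092450-181092476 (plus strand) for IER5.
MDM2: ATTTAcaattatgtATTTAacATTTA
IER3: ttaatATTTAtatgtATTTAtgtac
IER5: cctttATTTATTTATTTATTTAattat

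On GRCh38 the genes lie at chr1:67685201-67688334 (GADD45A), chr19:2476122-2478259 (GADD45B), chr6:36676460-36687337 (CDKN1A), chr12:68808177-68845544 (MDM2), chr1:203305491-203309602 (BTG2), chr6:30743199-30744548 (IER3), chr1:181088700-181092900 (IER5) and chr1:28259518-28282491 (SESN2). IER3 is on the minus strand and the others on the plus strand. Other genes lie opposite 38.9% of the exon length of IER3, 11.1% of that of MDM2 and 4.87% of that of CDKN1A, and the strand setting of the counting is not given in the sources used here. The partners opposite IER3 were counted low: IER3-AS1 had 30 counts and HCG20 224 counts over all libraries, against 4323 for IER3. Opposite MDM2, a long noncoding RNA had 92 counts and the gene named CPM 3367, against 193260 for MDM2. A pseudogene on the same strand shares 5.29% of the MDM2 exon length and had 0 counts. With the strand setting unknown, such counts do not show how many reads the overlaps affected. The overlap is uncertain for IER3 above all.

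Per kb of merged exon, MDM2 had the highest level of the 8 in every group, from 36.9 CPM per kb in WT granules with tetracycline to 77.9 CPM per kb in WT granules with arsenite. In untreated WT cytosol it stood at 42.1, followed by CDKN1A at 15.0, IER5 at 14.3, SESN2 at 13.7, GADD45A at 12.7, BTG2 at 9.11, IER3 at 7.28 and GADD45B at 6.21 CPM per kb. The replicate ranges of neighbours in that order overlapped from CDKN1A to GADD45A, and for IER3 and GADD45B. The order changed with line and arsenite: in arsenite-treated WDM granules SESN2 was second at 34.3 CPM per kb and GADD45A was last at 3.66 CPM per kb.

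**Figure D1:**
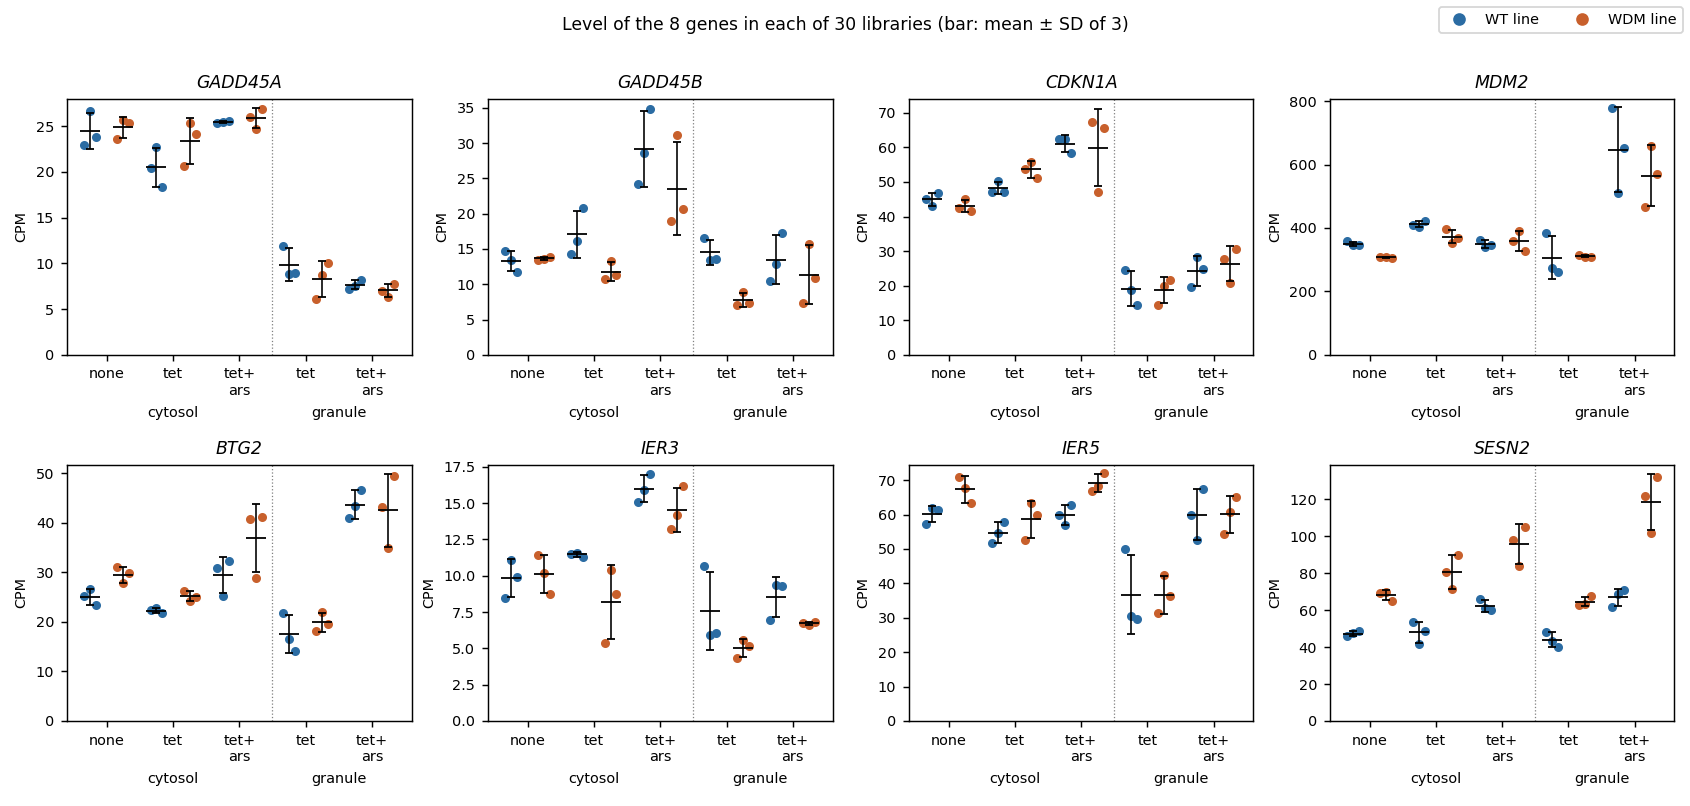
Level of each gene in CPM (y axis from 0) in all 30 libraries, by treatment (none, tetracycline, tetracycline plus arsenite) in cytosol and granule, with the WT line in blue and the WDM line in orange. Points are replicates and bars the mean ± SD of 3. MDM2, BTG2 and SESN2 reached their highest group means in arsenite-treated granules, GADD45A and CDKN1A were lower in granules than in cytosol in every library, and SESN2 was higher in WDM.

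Arsenite in the cytosol raised GADD45B in both lines, lowered MDM2 in WT, and raised BTG2 and IER3 in WDM. GADD45B was at 14.3, 16.2 and 20.8 CPM with tetracycline and at 24.2, 28.6 and 34.9 CPM with arsenite in WT. In WDM it was at 10.8, 13.3 and 11.3 CPM against 19.0, 31.1 and 20.6 CPM. All arsenite libraries of a line lay above all its tetracycline libraries. In bulk libraries such as these, a change in the share of expressing cells and a change in RNA per cell cannot be told apart. The log2 fold change was 0.63 (SE 0.186, edgeR adjusted p = 0.0169) in WT and 0.92 (SE 0.194, edgeR adjusted p = 0.00228) in WDM. The WT call was lost without tetracycline replicate 2 or arsenite replicate 3, with an adjusted p of up to 0.0792.

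MDM2 moved the other way in WT cytosol, from 410, 404 and 423 CPM to 362, 340 and 346 CPM. The groups did not overlap, and the log2 fold change was -0.37 (SE 0.0791, edgeR adjusted p = 0.00208). This fall is against tetracycline alone: untreated WT cytosol, at 358, 345 and 347 CPM, overlapped the arsenite libraries. In WDM the libraries overlapped, at 396, 354 and 369 CPM against 358, 390 and 326 CPM, with a log2 fold change of -0.15 (SE 0.0790, adjusted p = 0.163).

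The immediate early gene IER3 was at 5.39, 10.4 and 8.74 CPM with tetracycline and at 13.2, 14.2 and 16.2 CPM with arsenite in WDM. That is a log2 fold change of 0.71 (SE 0.166, edgeR adjusted p = 0.00415), with no overlap. In WT it was at 11.5, 11.6 and 11.3 CPM against 15.1, 15.9 and 17.0 CPM, again with no overlap, at 0.35 (SE 0.160, adjusted p = 0.104). BTG2 went from 26.3, 24.2 and 25.0 CPM to 40.7, 28.9 and 41.1 CPM in WDM, at 0.46 (SE 0.118, edgeR adjusted p = 0.00736). In WT it was at 22.4, 22.7 and 21.7 CPM against 30.8, 25.3 and 32.2 CPM, at 0.27 (SE 0.119, adjusted p = 0.0933). When only the groups compared were fitted, the WDM calls of BTG2 (adjusted p = 0.0587) and IER3 (adjusted p = 0.0503) were lost.

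SESN2 was at 53.4, 41.8 and 48.6 CPM with tetracycline and 65.9, 61.0 and 60.0 CPM with arsenite in WT. Its groups were apart, but the log2 change of 0.25 (SE 0.0930, edgeR adjusted p = 0.0520) missed the threshold. In WDM the SESN2 libraries overlapped, at 80.7 ± 9.32 CPM against 95.5 ± 10.6 CPM. The log2 change there was 0.15 (SE 0.0907, edgeR adjusted p = 0.218). GADD45A, CDKN1A and IER5 were not called in either line, with log2 fold changes between -0.01 and 0.20. CDKN1A in WT illustrates this range: it was at 47.2, 50.4 and 47.2 CPM against 62.5, 62.5 and 58.3 CPM, with a log2 fold change of 0.20 after TMM scaling. All arsenite libraries lay above the others on the CPM scale, and the change was 0.34 with library size alone as the scaling.

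Over the 8 members, 2 passed in WT (1 up, 1 down), where 29.0% of 16670 genes tested were called, and 3 passed in WDM (3 up), where 28.8% were called. Neither share of members called stands clear of that of all genes. Upward calls alone made up 13.7% of all genes in WT and 14.1% in WDM. The median log2 fold change of the members was 0.23 in WT and 0.15 in WDM, against -0.02 and -0.00 for all genes. With library size alone as the scaling, the median of all genes in WT moved to 0.11 and 7 of the 8 members were called, 6 up and MDM2 down (-0.24). GADD45A, CDKN1A, BTG2, IER3 and SESN2 were the 5 added, so their calls depended on the scaling. The same scaling turned the calls over all genes from 2279 up and 2559 down into 3302 up and 1002 down in WT, and from 2345 up and 2459 down into 3051 up and 1513 down in WDM.

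No difference between the lines in the arsenite change of a member was called in cytosol: edgeR called 0 of 8 and DESeq2 0 of 8, none of the 8 had an unadjusted p under 0.05, and 0% of 16670 genes were called (331 at an unadjusted p under 0.05). The difference of the changes, WDM minus WT, ran from -0.14 for CDKN1A to 0.36 for IER3 (SE 0.231) on the log2 scale. Calls in 1 line and not the other are therefore not shown to differ between the lines.

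The homologues and partners of the members were followed as lists. Among 12 family genes (other GADD45, CDKN1, MDM, BTG/TOB, IER and SESN genes), 2 rose and 0 fell in WT, and 3 rose and 0 fell in WDM. IER2, an immediate early gene, rose by 1.77 (SE 0.0970) and 1.79 (SE 0.0966) on the log2 scale, from 31.2 ± 3.64 to 117 ± 5.67 CPM (SD, n = 3) in WT, though other genes lie opposite 52.2% of its exon length. MDM4, the partner of MDM2 in holding p53, rose in WT (0.36), and TOB2, a relative of BTG2, rose in WDM (0.57). The MDM4 rise is against tetracycline alone, and its libraries overlapped, at 50 ± 10.5 CPM against 70 ± 7.92 CPM with arsenite. Untreated WT cytosol stood at 71.4 ± 9.15 CPM for MDM4. Of 23 other p53 targets tested, 2 rose and 6 fell in WT, and 3 rose and 1 fell in WDM. The stress kinase genes PLK2 (0.52 and 0.77) and PLK3 (0.73 and 0.75) rose in both lines, and RPS27L (-0.45) and the death receptor gene FAS (-0.41) were among those that fell in WT. Of 16 binding partners and regulators, 1 rose and 4 fell in WT and 1 rose and 3 fell in WDM, with WDR59 of GATOR2 up (0.54 and 0.39) and PCNA down (-0.37 and -0.36). The lists' median changes were 0.15, -0.11 and -0.09 in WT, and 0.18, -0.05 and -0.07 in WDM, in the same order. NEAT1 and MALAT1, nuclear RNAs, summed to 197 to 640 CPM in cytosol with tetracycline and to 509 to 830 CPM with arsenite. Their part in these changes was not tested.

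Tetracycline, which switches on the TIA1 transgene, moved few members in cytosol. MDM2 was at 358, 345 and 347 CPM untreated and at 410, 404 and 423 CPM with tetracycline in WT, and at 308, 308 and 305 CPM against 396, 354 and 369 CPM in WDM. Every tetracycline library lay above every untreated one. The log2 fold changes were 0.28 (SE 0.0792, edgeR adjusted p = 0.0447) and 0.31 (SE 0.0792, edgeR adjusted p = 0.0243). Both calls were thin. The first was lost in 5 of the 6 fits that left out a WT library and with only the groups compared, with an adjusted p of up to 0.187. The second was lost in 4 of 6 and with no low-count filter, with an adjusted p of up to 0.109. The 13 mitochondrial mRNAs summed to 1430 to 1614 CPM untreated and 976 to 1387 CPM with tetracycline in WT, and to 1611 to 1903 CPM and 1180 to 1276 CPM in WDM, without overlap, and their part in the MDM2 result was not tested. In WT the exception among the fits that left out a library was the fit without tetracycline replicate 1, and in WDM the call was kept without tetracycline replicate 2 or 3.

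CDKN1A was at 42.5, 45.1 and 41.5 CPM untreated and at 53.8, 55.9 and 51.2 CPM with tetracycline in WDM, without overlap, and just missed the threshold (log2 0.34, SE 0.102, edgeR adjusted p = 0.0503). CDKN1A passed there with RLE factors, the replicate block, DESeq2 and only the groups compared. SESN2 in WDM, at 0.27 (edgeR adjusted p = 0.0877), passed with the replicate block and without tetracycline replicate 2. In the main fit only MDM2 of the 8 was called in each line, beside 5.31% of all genes in WT and 6.30% in WDM. A difference between the lines in the tetracycline change was called for 0 of 8 members by edgeR and 0 of 8 by DESeq2, and for 0.0180% of all genes by edgeR. Members with an unadjusted p under 0.05 numbered 2, GADD45B (-0.60, SE 0.284, unadjusted p = 0.0466) and IER3 (-0.52, SE 0.242, unadjusted p = 0.0433). Of the 12 family genes, 1 rose and 1 fell in WT, TOB2 (0.49) and MDM4 (-0.48), and 0 rose and 1 fell in WDM. Of the 23 p53 targets, 0 were called in WT, and 1 rose and 1 fell in WDM.

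Measured from the untreated state to tetracycline plus arsenite, the same 4 members rose in each line: GADD45B, IER3, CDKN1A and SESN2. This comparison shares its arsenite libraries with the one above, so its values are given side by side and add no separate evidence. GADD45B rose by 1.05 (SE 0.194, edgeR adjusted p = 0.000635) in WT and by 0.73 (SE 0.189, edgeR adjusted p = 0.00536) in WDM, from 14.7, 13.4 and 11.8 CPM and from 13.5, 13.6 and 13.9 CPM. IER3 rose by 0.62 and 0.46 (edgeR adjusted p = 0.00860 and 0.0300), CDKN1A by 0.35 and 0.41 (0.0140 and 0.00363) and SESN2 by 0.30 and 0.42 (0.0182 and 0.00141). All genes were called at 32.3% in WT and 39.1% in WDM, with 15.2% and 19.0% called up. GADD45A ended where it began: 22.9, 26.7 and 23.8 CPM untreated and 25.4, 25.5 and 25.6 CPM after both treatments in WT, at -0.03 (SE 0.103). MDM2 was not called from the untreated state, at -0.09 in WT and 0.16 in WDM (edgeR adjusted p = 0.386 and 0.120). Nor was BTG2, at 0.14 in WT and 0.25 in WDM (edgeR adjusted p = 0.397 and 0.0908). The WT calls of CDKN1A, IER3 and SESN2 were each lost without at least 1 library, untreated replicate 1 for IER3, untreated replicate 2 or arsenite replicate 1 for CDKN1A, and any of those 3 for SESN2. In WDM the IER3 call was lost without untreated replicate 2 or 3 or arsenite replicate 2 or 3.

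In the granule fraction arsenite raised 4 of the 8 members in each line, BTG2, MDM2, SESN2 and IER5, and lowered none. BTG2 was at 21.7, 16.6 and 14.2 CPM with tetracycline and at 40.9, 43.4 and 46.6 CPM with arsenite in WT. In WDM it was at 18.1, 21.9 and 19.6 CPM against 43.1, 34.8 and 49.5 CPM. Every arsenite library lay above every other library of its line. The log2 fold change was 1.36 (SE 0.184, edgeR adjusted p = 9.74e-06) in WT and 1.02 (SE 0.179, edgeR adjusted p = 9.03e-05) in WDM.

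MDM2, whose downstream promoter and AU-rich 3′ end are printed above, was at 383, 275 and 261 CPM with tetracycline and at 778, 511 and 652 CPM with arsenite in WT granules. In WDM granules it was at 314, 309 and 309 CPM against 465, 658 and 570 CPM. Neither line had overlapping groups. The log2 fold changes were 1.11 (SE 0.201, edgeR adjusted p = 0.000206) and 0.80 (SE 0.200, edgeR adjusted p = 0.00257), while the cytosolic level of MDM2 fell in WT against tetracycline alone.

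SESN2 was at 48.4, 43.3 and 40.3 CPM against 61.9, 68.7 and 70.7 CPM in WT granules, and at 63.0, 63.5 and 67.5 CPM against 122, 102 and 132 CPM in WDM granules. The groups were apart in each line, at log2 0.63 (SE 0.150, edgeR adjusted p = 0.00255) and 0.81 (SE 0.148, edgeR adjusted p = 0.000149). IER5 was at 49.9, 30.6 and 29.6 CPM against 59.8, 52.6 and 67.5 CPM in WT, and at 31.4, 42.3 and 36.4 CPM against 54.5, 60.7 and 65.2 CPM in WDM. It rose by 0.75 (SE 0.194, edgeR adjusted p = 0.00465) and 0.64 (SE 0.192, edgeR adjusted p = 0.00993). Those IER5 calls each rested on 1 library: without WT tetracycline replicate 3 the adjusted p was 0.0670, and without WDM arsenite replicate 3 it was 0.0528.

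The other members were not called in granules. CDKN1A was at 24.4, 18.6 and 14.5 CPM against 19.7, 28.2 and 24.7 CPM in WT, overlapping, and its log2 fold changes were 0.37 (SE 0.205) and 0.42 (SE 0.201). IER3 changed by 0.25 and 0.34, GADD45A by -0.32 and -0.32, and GADD45B by -0.08 in WT and 0.48 in WDM, with edgeR adjusted p between 0.108 and 0.829 over these 4 genes. GADD45B, which rose in cytosol, was at 16.6, 13.4 and 13.6 CPM against 10.4, 12.9 and 17.2 CPM in WT granules, with overlapping groups. The share of members called was 4 of 8 in each line, beside 30.6% of 18366 genes in WT and 36.3% in WDM. Upward calls alone made up 16.5% of all genes in WT and 18.7% in WDM. Medians were 0.50 and 0.56 for the members and -0.03 and 0.01 for all genes.

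**Figure D2:**
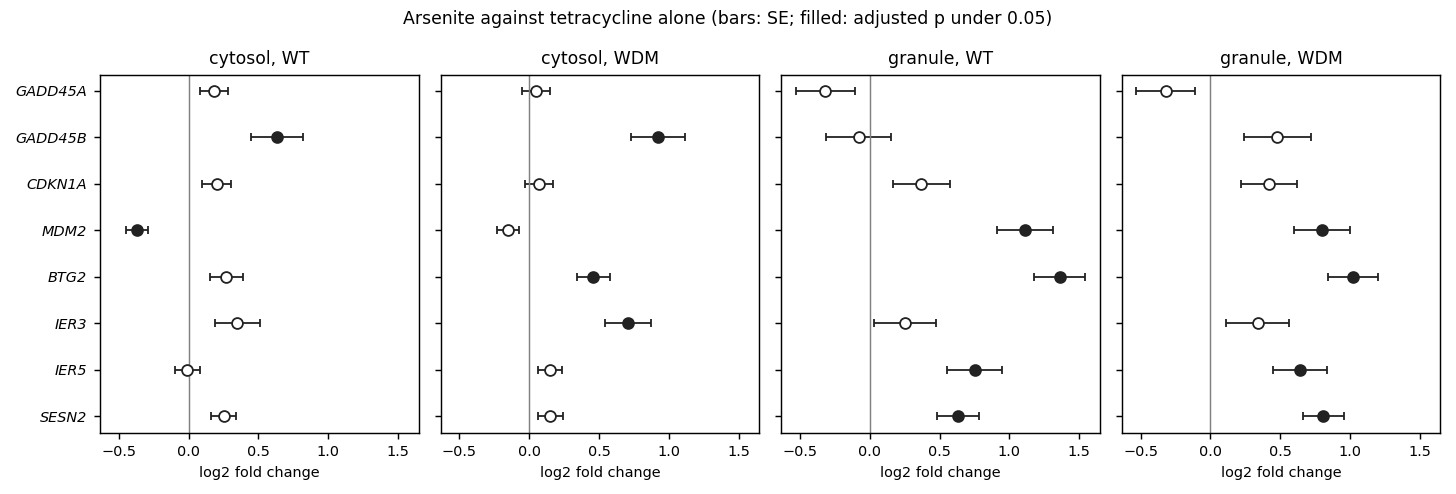
Log2 fold change (x axis) of each gene with arsenite against tetracycline alone, by fraction and line, with bars for the SE and filled points for an edgeR adjusted p under 0.05. BTG2, MDM2, IER5 and SESN2 are filled in both granule panels, from 0.63 to 1.36, while the only filled point below 0 is MDM2 in WT cytosol, at -0.37.

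No member's arsenite change in granules differed between the lines by edgeR (0 of 8) or DESeq2 (0 of 8), 0 members had an unadjusted p under 0.05, and 0% of genes were called, with 2329 at an unadjusted p under 0.05. The widest differences were 0.56 for GADD45B (SE 0.336) and -0.34 for BTG2 (SE 0.254). Depth and composition of the granule libraries moved with arsenite. Totals were 5906167 to 25176605 without it and 18864056 to 27419145 with it, and the 13 mitochondrial mRNAs summed to 1157 to 4201 CPM without and 521 to 1615 CPM with it. NEAT1 and MALAT1 summed to 2175 to 3482 CPM without arsenite and 2143 to 3191 CPM with it, against cytosolic medians of 408 and 546 CPM. The part of these values in the granule results was not tested.

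The relatives of the members were again followed as lists. Of the 12 family genes 6 rose and 1 fell in WT, and 4 rose and 0 fell in WDM, with list medians of 0.59 and 0.26. TOB1 and TOB2, which like BTG2 bind the CCR4-NOT deadenylase, rose by 1.62 (SE 0.212) and 1.31 (SE 0.177) in WT and by 1.64 (SE 0.208) and 1.59 (SE 0.178) in WDM. SESN3, a second sestrin, rose by 1.02 in WT, and IER2 rose by 1.03 and 1.33. Of 22 other p53 targets tested, 6 rose and 2 fell in WT and 6 rose and 5 fell in WDM. TP53INP1, a p53 cofactor gene, rose by 1.80 and 1.09, and the pro-apoptotic BBC3 by 0.94 and 0.95, while CCNG1 fell by 1.29 in WDM and DDB2 by 0.85 in WT on the log2 scale. Of the 16 partners, 5 rose and 0 fell in WT and 2 rose and 4 fell in WDM. USP7, the deubiquitinase of MDM2 and p53, rose by 1.07 and 1.05, and PCNA, bound by p21 and GADD45 proteins, fell by 0.99 in WDM.

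The granule and cytosol libraries were then set against each other within each treatment. This compares a transcript's share of the pull-down libraries with its share of the cytosol libraries, and does not by itself locate it. Depleted below means a lower share in the granule libraries. GADD45A and CDKN1A were depleted from granules in all 4 comparisons. GADD45A was at 20.4, 22.7 and 18.4 CPM in WT cytosol with tetracycline and at 11.9, 8.82 and 8.90 CPM in granules. With arsenite it was at 25.4, 25.5 and 25.6 CPM in cytosol against 7.21, 7.53 and 8.20 CPM in granules. No granule library reached a cytosol library. The log2 differences were -1.13 (SE 0.165) and -1.73 (SE 0.161) in WT and -1.47 (SE 0.165) and -1.94 (SE 0.160) in WDM, with edgeR adjusted p of at most 5.29e-07. For CDKN1A they were -1.41 (SE 0.178) and -1.34 (SE 0.171) in WT and -1.50 (SE 0.176) and -1.24 (SE 0.169) in WDM, with edgeR adjusted p of at most 2.16e-07. IER3 was also depleted throughout, at -0.71 and -0.91 in WT and -0.71 and -1.17 in WDM.

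GADD45B was depleted under arsenite, at -1.11 (SE 0.236) in WT and -1.12 (SE 0.237) in WDM. With tetracycline alone it stood at -0.30 (adjusted p = 0.277) in WT and at -0.59 (edgeR adjusted p = 0.0430) in WDM. The latter call was lost with RLE factors, with DESeq2, and without WDM cytosol replicate 2 or 3 or WDM granule replicate 1 or 3, at an adjusted p of up to 0.151.

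MDM2 changed sides. With tetracycline alone it was lower in granules, at -0.47 in WT (SE 0.171, edgeR adjusted p = 0.0137) and -0.27 in WDM (SE 0.170, adjusted p = 0.155). With arsenite it was higher, at 0.90 in WT (SE 0.171, edgeR adjusted p = 3.20e-05) and 0.60 in WDM (SE 0.170, edgeR adjusted p = 0.00271). The WT call with tetracycline alone was lost without granule replicate 2 or 3, at an adjusted p of up to 0.0797.

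BTG2 stood at -0.42 in WT with tetracycline (SE 0.161, edgeR adjusted p = 0.0202) and at 0.57 with arsenite (SE 0.152, edgeR adjusted p = 0.00149). In WDM the values were -0.34 (adjusted p = 0.0583) and 0.14 (adjusted p = 0.403). The WT call with tetracycline alone was lost without granule replicate 3 and when only the groups compared were fitted, at an adjusted p of up to 0.151. IER5 went from -0.65 (SE 0.163) to 0.01 in WT and from -0.67 (SE 0.161) to -0.26 (SE 0.157) in WDM, and was called lower with tetracycline alone in each line. SESN2 lay near 0, between -0.32 and 0.25, with 1 call of 4, at -0.32 in WDM with tetracycline (SE 0.123, edgeR adjusted p = 0.0209). That call was lost without a low-count filter and without WDM cytosol replicate 3 or WDM granule replicate 1, at an adjusted p of up to 0.101. In WDM with arsenite SESN2 stood at 0.25 (SE 0.121, edgeR adjusted p = 0.0658), and it was called higher there with RLE factors, library size alone, the replicate block and DESeq2, and without cytosol replicate 3 or granule replicate 2, with an adjusted p from 0.0218 to 0.293 over all alternatives.

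In counts, 6 of 8 members were lower in granules and 0 higher with tetracycline in each line, and with arsenite 4 were lower and 2 higher in WT and 4 lower and 1 higher in WDM. All genes were called at 75.7% and 71.1% with tetracycline and at 70.5% and 72.0% with arsenite, so a call by itself says little here. Lower calls made up 36.2%, 35.3%, 35.5% and 35.7% of all genes, and higher calls 39.5%, 35.8%, 35.0% and 36.3%. The members' medians were -0.56, -0.63, -0.45 and -0.69 in that order of comparisons, against 0.07, 0.02, 0.05 and 0.06 for all genes. The p53 targets leaned the same way, with 15 to 16 of 23 lower and 1 to 3 higher in each comparison, led by RPS27L at -3.19 in WT with tetracycline. Of the family genes, 6 to 8 of 12 were lower and 2 to 4 higher, among the latter SESN3 at 1.96 and TOB2 at 1.24 in WT with arsenite.

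The change in granule enrichment with arsenite was tested as the interaction of fraction and arsenite. MDM2 gained 1.38 (SE 0.242, edgeR adjusted p = 0.000140) in WT and 0.87 (SE 0.241, edgeR adjusted p = 0.00935) in WDM on the log2 scale. The median of all genes was -0.21 in WT and -0.17 in WDM. BTG2 gained 0.99 in WT (SE 0.221, edgeR adjusted p = 0.00132) and had 0.48 in WDM (SE 0.218, adjusted p = 0.111). SESN2 gained 0.57 in WDM (SE 0.172, edgeR adjusted p = 0.0159) and had 0.28 in WT (SE 0.175, adjusted p = 0.228). The WDM call was lost without cytosol tetracycline replicate 3 or granule arsenite replicate 3.

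IER5 gained 0.66 in WT (SE 0.226, edgeR adjusted p = 0.0269) and GADD45A lost, at -0.60 (SE 0.228, edgeR adjusted p = 0.0430). These were thin calls: 6 of 12 fits that left out a library lost IER5 (adjusted p up to 0.102) and 8 of 12 lost GADD45A (adjusted p up to 0.436), which RLE factors, DESeq2 and the fit without a low-count filter also lost. GADD45B had the lowest value of the members in WT, at -0.81 (SE 0.340, edgeR adjusted p = 0.0676). It was not called, but passed with library size alone, the replicate block and only the groups compared, and without cytosol tetracycline replicate 3 or granule arsenite replicate 3. Among the members 3 rose and 1 fell in WT beside 31.4% of 18141 genes called, and 2 rose in WDM beside 24.2%. Of all genes, 12.0% rose and 19.4% fell in WT, and 7.66% rose and 16.5% fell in WDM. No difference between the lines in granule enrichment was called for a member, with tetracycline or with arsenite: edgeR and DESeq2 called 0 of 8 in each case, 0 had an unadjusted p under 0.05, and 0.00551% of all genes, that is 1 gene, were called in each, with 929 and 1200 genes at an unadjusted p under 0.05. BTG2 had the widest difference under arsenite, at -0.43 (SE 0.213).

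The 4 members that arsenite raised in granules have the longest transcripts of the 8, and the 4 depleted from arsenite granules in each line have the shortest. Canonical transcripts are 7490 nt for MDM2, 4201 for IER5, 3462 for SESN2 and 2729 for BTG2, and 2117 for CDKN1A, 1371 for GADD45B, 1352 for GADD45A and 1237 for IER3. All genes showed a gradient of the same direction. In WDM with arsenite, 2216 genes of 1237 to 2117 nt had a median granule difference of -0.93, with 65.4% called lower and 15.0% higher, and 6914 genes of 2729 to 7490 nt had a median of 0.16, with 27.8% called lower and 39.0% higher. In WT the longer class had a median of 0.21. Across 13518 genes Spearman's rho of the difference with length was 0.49 to 0.60 over the 4 comparisons, a description over genes that share their libraries. The arsenite change within granules followed length less, with medians of -0.13 and 0.09 in WT and -0.13 and 0.08 in WDM for these length classes, and rho of 0.20 and 0.18. BTG2 at 1.36 and MDM2 at 1.11 lay above the median of their class. Neither transcript length nor pentamers were tested as a source of the members' granule values.

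**Figure D3:**
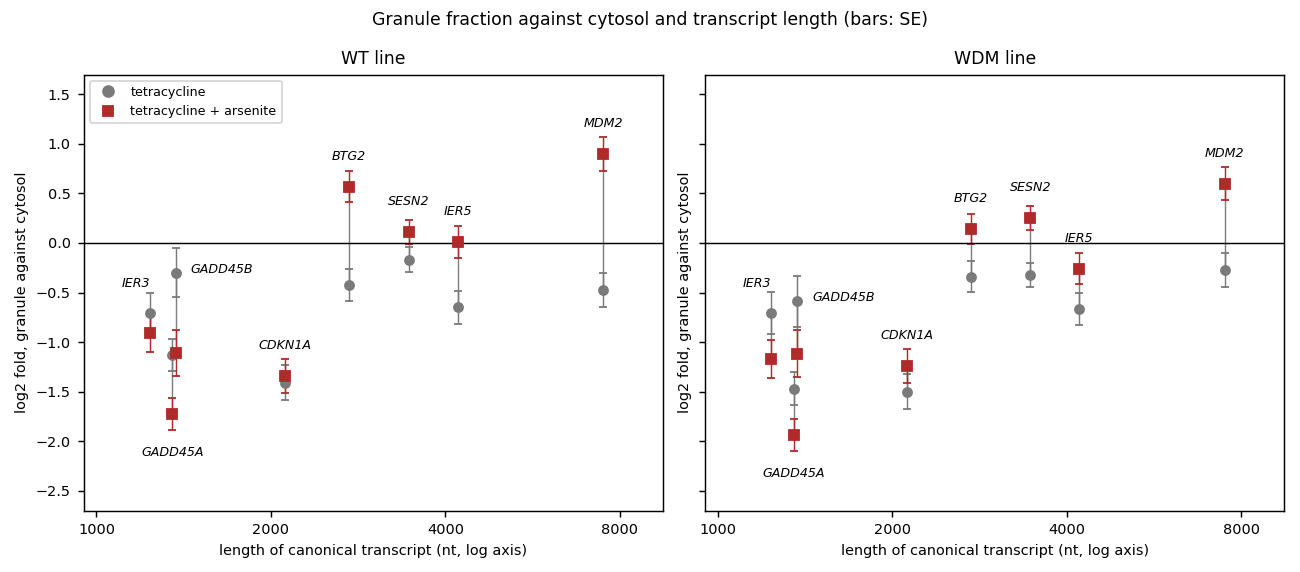
Log2 fold of granule against cytosol (y axis) against the length of the canonical transcript in nt (log x axis) for the WT and WDM lines, with circles for tetracycline alone, squares for tetracycline plus arsenite, and bars for the SE. The 4 transcripts of 2117 nt and less stay below 0, from -0.30 to -1.94, and MDM2, the longest, moves from -0.47 to 0.90 in WT and from -0.27 to 0.60 in WDM.

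Between the lines, SESN2 was higher in WDM in every condition. In untreated cytosol it was at 46.0, 47.4 and 48.5 CPM in WT and at 69.5, 70.0 and 65.2 CPM in WDM. With tetracycline it was at 53.4, 41.8 and 48.6 CPM against 80.8, 71.4 and 90.0 CPM, and with arsenite at 65.9, 61.0 and 60.0 CPM against 98.2, 83.8 and 105 CPM. No WDM library overlapped a WT library of its condition, in cytosol or in granules. The log2 differences in cytosol were 0.49 (SE 0.0938, edgeR adjusted p = 0.00131), 0.70 (SE 0.0929, edgeR adjusted p = 2.02e-05) and 0.61 (SE 0.0912, edgeR adjusted p = 9.19e-05). The lines thus differed before tetracycline was added. Other RNAs differed between the lines as well. NEAT1 and MALAT1 summed to 324 to 392 CPM in untreated WT and 609 to 670 CPM in untreated WDM cytosol, and overlapped between the lines in the other conditions. The 5 epithelial markers summed to 484 to 517 CPM in WT and 351 to 362 CPM in WDM untreated, and were lower in WDM without overlap in all 3 cytosol conditions. Their part in the line differences was not tested.

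In granules the SESN2 difference was 0.56 with tetracycline (SE 0.151, edgeR adjusted p = 0.0250) and 0.74 with arsenite (SE 0.148, edgeR adjusted p = 0.00163). The tetracycline call was lost in 4 of 6 fits that left out a library, namely WT or WDM replicate 2 or 3, without a low-count filter and with only the groups compared, at an adjusted p of up to 0.145. SESN2 was the only member called in cytosol in any of the 3 conditions, beside 9.78%, 12.6% and 10.4% of all genes. GADD45B and IER3 were lower in the WDM libraries with tetracycline without overlap, at -0.59 (SE 0.199, adjusted p = 0.0561) and -0.51 (SE 0.170, adjusted p = 0.0524), and just missed the threshold. Without WT tetracycline replicate 1 or WDM tetracycline replicate 2 each of them passed. Both also passed with no low-count filter, the replicate block and DESeq2, and IER3 passed with RLE factors as well. MDM2 was lower in WDM cytosol without overlap, at -0.22 untreated and -0.20 with tetracycline (edgeR adjusted p = 0.0814 and 0.110). Neither was called, though the untreated difference passed when only the groups compared were fitted. With arsenite MDM2 overlapped between the lines, at 0.03. In granules with tetracycline GADD45B was at 16.6, 13.4 and 13.6 CPM in WT and at 7.04, 8.89 and 7.41 CPM in WDM. It was called there at -0.88 (SE 0.246, edgeR adjusted p = 0.0294), though only the fit without WDM replicate 2 kept the call among 6 that left out a library (adjusted p up to 0.106). All genes were called at 5.55% between the lines in granules with tetracycline, where 2 of 8 members passed, and at 7.95% with arsenite, where SESN2 alone passed.

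Of the 12 family genes, 1 was higher and 0 lower in untreated WDM cytosol, 3 higher and 1 lower with tetracycline, and 2 higher and 0 lower with arsenite. BTG3 was higher in WDM cytosol in each condition, by 0.67 (SE 0.0866), 0.53 (SE 0.0858) and 0.49 (SE 0.0843) from untreated to arsenite. SESN3 was higher with tetracycline (0.45) and with arsenite (0.57). Of the 23 p53 targets, 1 was higher and 3 lower untreated, 2 higher and 4 lower with tetracycline, and 2 higher and 3 lower with arsenite. TP53I3, an oxidoreductase gene, was higher (0.98, 1.45 and 1.33), and BAX (-0.70, -0.70 and -0.51) and TNFRSF10B (-0.30, -0.55 and -0.49), of the apoptotic pathways, were lower. Of the 16 partners, 2 were lower and 0 higher in each condition. CNOT7, a deadenylase of the complex that BTG2 recruits, was lower by 0.53, 0.72 and 0.64 on the log2 scale. The other was USP7, at -0.59, -0.63 and -0.43. The p53 targets thus differed between the lines in both directions, with list medians of -0.01, -0.14 and -0.08.

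**Figure D4:**
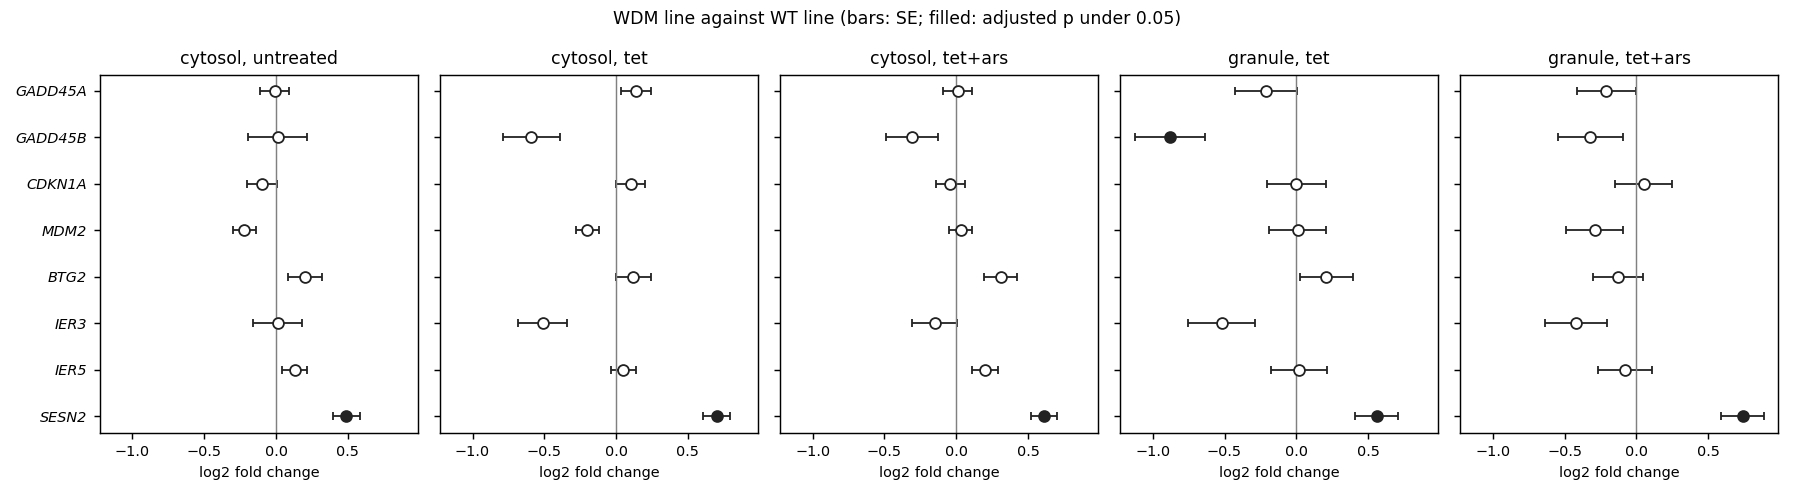
Log2 fold change (x axis) of each gene in the WDM line against the WT line in the 5 conditions, with bars for the SE and filled points for an edgeR adjusted p under 0.05. SESN2 is filled in all 5 panels, from 0.49 to 0.74, and GADD45B is filled below 0 in granules with tetracycline, at -0.88.

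Across the 18 cytosol libraries the members did not vary together as a group. The highest correlation of log2 CPM among the 28 pairs was that of GADD45B and IER3 (Pearson's r = 0.80), and the lowest were those of GADD45A and MDM2 (-0.64) and of MDM2 and BTG2 (-0.61). Among 11330 named genes, those most like each member were THUMPD3-AS1 (0.923) and ADM (0.922) for GADD45B, DDX55 (0.902) and TOP3B (0.886) for IER3, MBNL2 (0.896) and CREM (0.875) for CDKN1A, and FAM168B (0.954) and PSMD2 (0.947) for MDM2. For SESN2 they were NAV3 (0.966) and CDC14A (0.955), for BTG2 FNBP1L (0.866) and MRPS30-DT (0.852), for IER5 HOXA11-AS (0.819) and ADSS2 (0.811), and for GADD45A CCDC62 (0.794). These correlations describe 18 libraries that share their groups and scaling, and carry no test.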

How the data were processed

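RNA was sequenced from 30 libraries, 18 of cytosol and 12 of purified granules, as stranded total RNA after rRNA removal (per the labels' protocols). The deposited values are raw read counts per gene, 1 column per library. Trimmomatic, STAR, Picard and featureCounts and the build GRCh38 are named in the submitters' processing notes, and the versions, annotation and strand setting are not given in the sources used here. Of 60664 identifiers, 60463 were found in GENCODE v44 and 56693 had identical coordinates, those of all 8 members included.

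Groups and replicate numbers came from the sample titles. Replicate libraries differed by more than sampling noise (chi-square per degree of freedom 1.63 to 40.7), so each counted once. Counts were tested in edgeR 4.0.16 (R 4.3.3; filterByExpr with minimum count 10 and total 15, TMM factors, robust quasi-likelihood fit of group means) in 3 fits, cytosol (16670 genes), granule (18366 genes) and both fractions with tetracycline (18141 genes). The 24 comparisons, 17 between groups and 7 of differences, had their p-values adjusted (Benjamini-Hochberg) across every gene of the fit, and were called at an adjusted p under 0.05. The SE is the size of the log2 change over the square root of F. CPM in the text is scaled to the library total, fold changes to TMM factors, so they can differ in size. The fits were tested on simulated counts, for the first comparison of each fit, with 200 genes changed and the same spread for every gene. Real libraries spread less evenly, so this checks the working of the fits and not their error rates here. As alternatives, DESeq2 1.42.0, a replicate block, the groups compared alone, scaling by library size alone or by RLE factors, a fit without the low-count filter, and leaving out each library were tried.

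The members and gene lists were chosen with earlier results of these data known. Named were the 8 members in every comparison, up to 4 called genes per list with the largest change and a mean of at least 5 CPM, and the 2 genes most correlated with each member in cytosol. One of the latter is not reported here.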

Additional observations from a re-analysis of the deposited data

How the results depend on the processing

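Over 192 results for single members, 2640 values under alternatives gave 2519 on the same side of the threshold, 51 that gained a call, 70 that lost one and 0 that reversed. The counts of members called moved as follows. With only the groups compared they were 0 and 2 for tetracycline in WT and WDM cytosol, 1 for arsenite in WDM cytosol, 2 between untreated lines and 1 between lines in granules with tetracycline. RLE factors gave 2 for tetracycline in WDM cytosol and 2 between lines with tetracycline in cytosol, and DESeq2 gave 2 and 3. No low-count filter gave 0 and 3 for these, and 1 between lines in granules with tetracycline. Library size alone gave 7 for arsenite in WT cytosol. The fit with a replicate block gave 3 for tetracycline in WDM cytosol and 3 between lines with tetracycline in cytosol. Some same-numbered pairs had a correlation of deviations over 0.1: 20 of 45 in cytosol, 7 of 18 in granules and 42 of 84 across fractions. Their medians were 0.079, -0.0773 and 0.0981, against -0.0316, 0.118 and -0.0547 for different numbers. Pairing by number was therefore neither shown nor excluded, and the main fits leave it out. Leaving out 1 library gave 0 to 1 and 0 to 2 for tetracycline in WT and WDM cytosol, 1 to 3 for arsenite in WT cytosol, 2 to 4 for both treatments in WT, 1 to 4 and 1 to 3 between lines in cytosol with tetracycline and arsenite, 0 to 1 in granules with tetracycline, and 2 to 4 and 1 to 3 for the enrichment change in WT and WDM. Scaling by library size alone moved the split of all calls from 488 up and 398 down to 372 and 475 for tetracycline in WT cytosol, from 967 and 1141 to 1165 and 917 between lines with tetracycline, from 2538 and 2852 to 3323 and 1841 and from 3174 and 3339 to 3821 and 2671 for both treatments in WT and WDM, and from 755 and 705 to 896 and 461 between lines in arsenite granules. Groups of 3 limit the precision of every value.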
